A study of Mus musculus with 8 samples.

Results

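Lrtm2, Ppfia4, Gldn and Tubb2b are 4 of the 37583 genes counted by RNA sequencing of mouse liver in 8 libraries. They were chosen by name because they had been seen higher in the PR-SET7_LOBE libraries than in the WT libraries, some of them also in the DEN_WT libraries. All 4 passed the count filter that kept 17362 genes. Those 2 contrasts are therefore given for these genes as a description, with no test. The contrast of PR-SET7_LOBE with DEN_WT was tested; it shares its libraries with the contrasts behind the choice, and a choice of genes high in PR-SET7_LOBE favours higher values there.

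The PR-SET7_LOBE group held 4 liver libraries of mice with the genotype PR-SET7_LX_ALB_CRE, in which the histone H4 methyltransferase Pr-Set7 is inactivated in hepatocytes. What LOBE stands for is not given, and the Cre driver is known only from the genotype's name. The DEN_WT group held 2 libraries of WT mice given DEN (diethylnitrosamine, a liver carcinogen) by intraperitoneal injection at 15 days of age, at a labelled dose of 25 ml per kg with no concentration. The WT group held 2 libraries of WT mice with no agent in the labels. All mice were C57BL6/CBA and 8 months old. No sample label speaks of a tumour, so the groups are named here as labelled.

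Tubb2b is a beta tubulin, which pairs with alpha tubulin to build microtubules, and it is known as an isotype of developing neurons. Ppfia4 encodes liprin-α4, of a scaffold family that binds receptor tyrosine phosphatases and organises the presynaptic active zone. Gldn encodes gliomedin, an olfactomedin-domain protein of Schwann cell microvilli that binds neurofascin and NrCAM and gathers sodium channels at the nodes of Ranvier. Lrtm2 encodes a leucine-rich repeat membrane protein.

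The libraries held between 7305595 and 16108081 counts, at which 3 counts correspond to 0.265 to 0.287 CPM, the depth-scaled read count on TMM-scaled library sizes. The TMM factors ran from 0.674 in WT replicate 2 to 1.48 in PR-SET7_LOBE replicate 3, so scaling itself shifts levels between libraries. Genes with any count ran from 18037 in WT replicate 1 to 26437 in PR-SET7_LOBE replicate 3, the library with the fewest counts. PR-SET7_LOBE replicate 4 came next with 24812, and it correlated with replicate 3 across genes at r = 0.947. Low-count rises in either of these libraries are to be read with this limit. The replicates of a group correlated across genes at r = 0.872 to 0.979, and PR-SET7_LOBE replicate 1 stood apart: it correlated with the WT libraries at 0.940 and 0.907 and with the other PR-SET7_LOBE libraries at 0.915, 0.882 and 0.872. Leaving it out took the number of genes called between PR-SET7_LOBE and WT to 2392, against 43 with it, and leaving out another single library gave 1 to 99. Genes of the lists used here behaved likewise, with 51 called without that replicate and 2 with it, so the counts of list genes between these 2 groups depend on it. Passes of single genes without that replicate, given further on, are to be read against the 2392 genes called there. Setd8, the gene of Pr-Set7, ranged from 46.5 to 62.6 CPM in PR-SET7_LOBE and was at 40.0 and 42.8 CPM in DEN_WT and at 51.9 and 56.0 CPM in WT. These are counts over the whole gene in tissue that also holds cells with an intact gene, so they do not check the genotype label. Hepatocyte markers were abundant in every library. Their summed levels were 88100, 171000, 50400 and 117000 CPM in PR-SET7_LOBE replicates 1 to 4, 143000 and 181000 CPM in DEN_WT and 117000 and 150000 CPM in WT. The lowest sum was thus that of PR-SET7_LOBE replicate 3. Because these are bulk livers, fewer cells of a type and less RNA per cell cannot be told apart.

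The 4 genes followed 3 patterns over the groups. Lrtm2 was high in PR-SET7_LOBE alone, Ppfia4 and Tubb2b were highest in PR-SET7_LOBE and intermediate in DEN_WT, and Gldn was highest in DEN_WT and intermediate in PR-SET7_LOBE. Against DEN_WT, 3 of the 4 passed the test: Lrtm2 and Tubb2b were higher in PR-SET7_LOBE and Gldn was lower. Over all tested genes, 11.1% were called in that contrast, 4.82% higher and 6.26% lower. The 4 genes were chosen from these same libraries, so their p-values may be biased and these shares are no yardstick for them. No PR-SET7_LOBE library overlapped the DEN_WT libraries for any of the 4, where 19.3% of all tested genes lay wholly higher and 21.2% wholly lower. All 4 lay wholly above WT in PR-SET7_LOBE, as did 11.6% of all tested genes (10.5% lay wholly below), and 3 of the 4 did so in DEN_WT, as did 37.8% of all tested genes (33.3% lay wholly below); these contrasts chose the genes. Calls were rare between PR-SET7_LOBE and WT, at 0.248% of all tested genes (0.15% higher and 0.0979% lower), and came to 9.72% between DEN_WT and WT (5.18% higher and 4.54% lower). An unadjusted p under 0.05 was reached by 17.2% of all tested genes between PR-SET7_LOBE and WT, by 28.9% between DEN_WT and WT and by 25.8% between PR-SET7_LOBE and DEN_WT, and the counts of list genes at that level given for each group of genes are to be read against these shares.

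**Figure D1:**
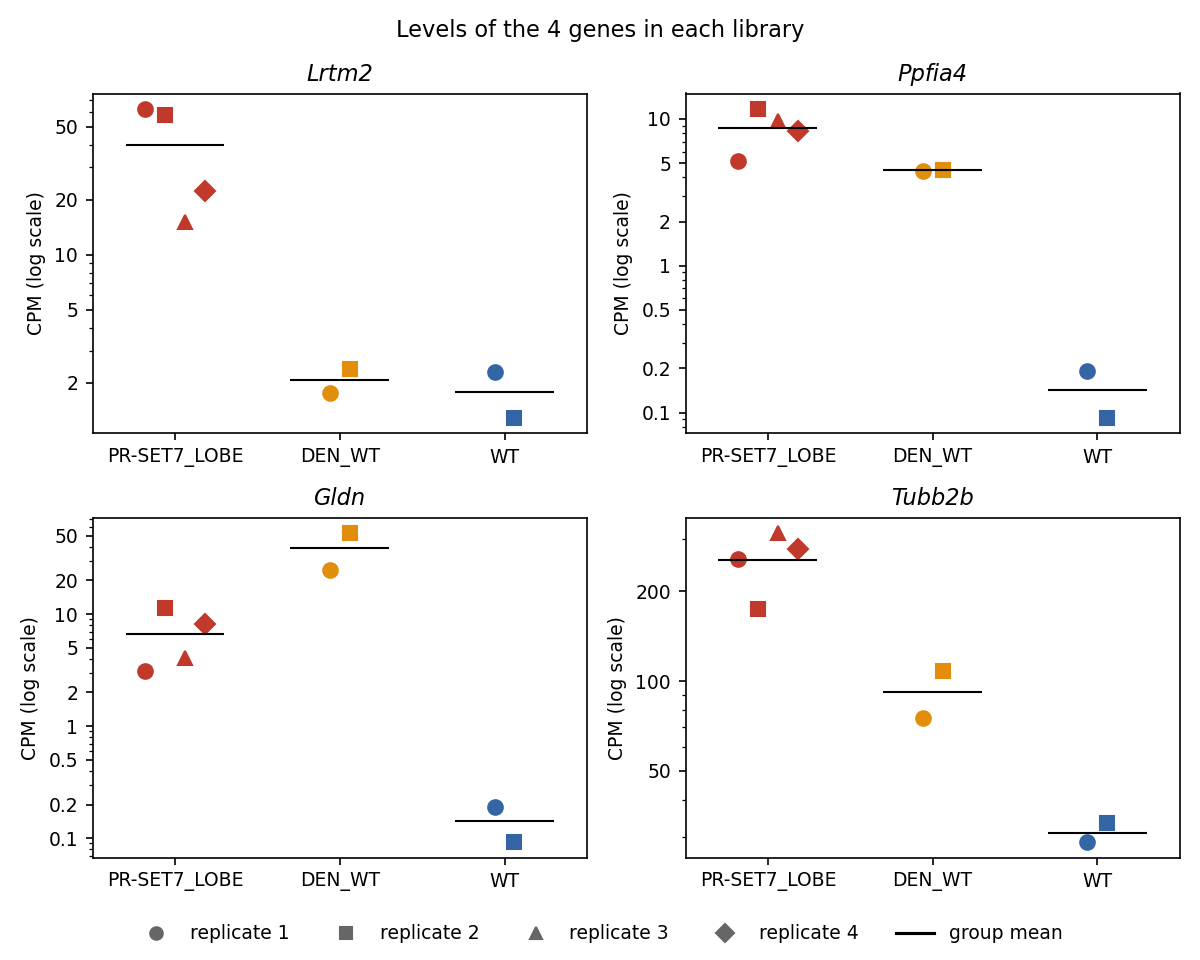
Levels of Lrtm2, Ppfia4, Gldn and Tubb2b in CPM on a log scale, with 1 point per library, a symbol per replicate and a line at the group mean. The 4 PR-SET7_LOBE libraries lie above both WT libraries in each panel, and the DEN_WT libraries lie with WT for Lrtm2 (1.77 and 2.38 CPM), between the other groups for Ppfia4 and Tubb2b, and on top for Gldn (25.0 and 52.5 CPM).

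Lrtm2 (ENSMUSG00000055003; mm9 chromosome 6, 119265151 to 119280784, minus strand) had 62.6, 58.2, 15.1 and 22.4 CPM in PR-SET7_LOBE replicates 1 to 4, against 1.77 and 2.38 CPM in DEN_WT and 2.30 and 1.29 CPM in WT. Replicates 1 and 2 held about the same high level and replicates 3 and 4 a lower one, still far above every other library, while DEN_WT and WT overlapped. The PR-SET7_LOBE mean was 39.6 ± 24.3 CPM (SD, n = 4), with a coefficient of variation of 61.4%, the widest of the 4 genes in that group. The means were 2.08 ± 0.434 CPM in DEN_WT and 1.79 ± 0.711 CPM in WT (SD, n = 2 each). The fitted log2 fold change against DEN_WT was 4.24 (SE 0.72, 95% interval 2.66 to 5.82), and it passed edgeR's quasi-likelihood test at an adjusted p = 0.00371 (up to 0.0494 with 1 library left out). Relative to WT, the log2 fold change was 4.46 (SE 0.73) in PR-SET7_LOBE and 0.21 (SE 0.72) in DEN_WT. Of the 17362 tested genes, 571 had a log2 fold change against WT at least as high as that of Lrtm2 in PR-SET7_LOBE, counting Lrtm2.

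The 15634 bases of Lrtm2 lie wholly within Cacna2d4, a gene of a voltage-gated calcium channel subunit on the opposite strand. Whether the counting used the strand is not given in the sources used here, so reads of the pair may be mixed. Cacna2d4 had 4.98, 6.12, 2.04 and 3.10 CPM in PR-SET7_LOBE, against 0.177 and 0.353 CPM in DEN_WT and 0 and 0.645 CPM in WT. Its PR-SET7_LOBE replicates split into the same 2 pairs as those of Lrtm2, with replicates 1 and 2 above 3 and 4. Cacna2d4 was higher in PR-SET7_LOBE than in DEN_WT by a log2 fold change of 3.88 (edgeR, adjusted p = 0.0374), a call that was lost without DEN_WT replicate 1 (adjusted p = 0.288), DEN_WT replicate 2 (0.241) or PR-SET7_LOBE replicate 2 (0.0798). Against WT it did not pass (log2 fold change 3.59, adjusted p = 0.158).

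The paralog pair Lrtm1 and Cacna2d3 is arranged in the same way, with Lrtm1 inside the calcium channel gene. Lrtm1 did not follow Lrtm2: it had 11.8, 7.84, 14.7 and 42.3 CPM in PR-SET7_LOBE, 2.21 and 5.12 CPM in DEN_WT and 35.0 and 48.3 CPM in WT. It fell in DEN_WT against WT (log2 fold change -3.50, edgeR, adjusted p = 0.0214), a call that was lost when either library of DEN_WT or WT was left out (adjusted p of 0.0583 to 0.155). Cacna2d2, another channel subunit gene, had 1.5, 2.30, 2.23 and 3.55 CPM in PR-SET7_LOBE, against 0.0885 and 0.0883 CPM in DEN_WT and 1.15 and 2.40 CPM in WT. Its DEN_WT libraries held 1 count each, and it was higher in PR-SET7_LOBE than in DEN_WT (log2 fold change 4.59, edgeR, adjusted p = 0.00759), with adjusted p = 0.111 without DEN_WT replicate 1 and 0.137 without DEN_WT replicate 2. Among the 4 tested genes of this group besides Lrtm2, none passed between PR-SET7_LOBE and WT and 1 had an unadjusted p under 0.05. Of 28 tested leucine-rich repeat adhesion genes of the synapse, none passed there either (5 with an unadjusted p under 0.05), and 1 fell in DEN_WT against WT.

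The start of Lrtm2 is shown because no other member differed so widely between PR-SET7_LOBE and DEN_WT. RefSeq lists 2 start windows for it on GRCm38.p6, each of 250 bases before and 50 after the start. The upstream one, chr6:119330717-119331016 on the minus strand, has no capitals because none of the 7 motifs named further on matched it.
Lrtm2: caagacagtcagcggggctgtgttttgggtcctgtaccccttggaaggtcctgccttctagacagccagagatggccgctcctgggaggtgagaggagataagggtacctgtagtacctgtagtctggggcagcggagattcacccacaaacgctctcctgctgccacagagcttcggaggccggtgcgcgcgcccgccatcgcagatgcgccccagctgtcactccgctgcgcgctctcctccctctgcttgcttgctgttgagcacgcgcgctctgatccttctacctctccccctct

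Ppfia4 (ENSMUSG00000026458; mm9 chromosome 1, 136193360 to 136229505, minus strand) had 5.17, 11.7, 9.75 and 8.29 CPM in PR-SET7_LOBE, against 4.43 and 4.50 CPM in DEN_WT and 0.191 and 0.0922 CPM in WT. The WT levels rest on 2 counts in replicate 1 and 1 count in replicate 2. PR-SET7_LOBE replicate 1 lay close to the DEN_WT libraries, and the other 3 lay above them by a wider margin. The means were 8.72 ± 2.74 CPM in PR-SET7_LOBE (SD, n = 4), 4.47 ± 0.0545 CPM in DEN_WT and 0.142 ± 0.0702 CPM in WT (SD, n = 2 each). Pooled over libraries, the PR-SET7_LOBE level was 61.8 times that of WT (95% counting interval 21 to 301) and the DEN_WT level 31.7 times that of WT (10.5 to 156). These intervals leave out the spread between libraries and the choice of the gene, so they are no test of the groups. The contrast of PR-SET7_LOBE with DEN_WT did not pass: its log2 fold change was 0.96 (SE 0.49, 95% interval -0.11 to 2.03, edgeR, adjusted p = 0.241). No other gene of the table overlaps Ppfia4.

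Of the other liprins and their relatives, none of the 6 tested passed between PR-SET7_LOBE and WT, although 3 had an unadjusted p under 0.05, and their median log2 fold change was 1.86 against 0.11 over all tested genes. Kazn, a liprin-related gene, had 4.60, 5.64, 4.36 and 5.56 CPM in PR-SET7_LOBE, against 3.98 and 3.27 CPM in DEN_WT and 1.34 and 0.830 CPM in WT (log2 fold change against WT 2.21, edgeR, adjusted p = 0.111, and 0.0262 without PR-SET7_LOBE replicate 1). Ppfibp2, a liprin-beta gene, was higher in PR-SET7_LOBE (18.2, 20.1, 21.4 and 18.0 CPM) than in DEN_WT (8.41 and 7.77 CPM), by a log2 fold change of 1.26 (edgeR, adjusted p = 0.0400). That call was lost in 7 of the 8 fits that left out 1 library (adjusted p up to 0.425, without DEN_WT replicate 2). Of 29 tested partners of liprins and active zone genes, none passed between PR-SET7_LOBE and WT (6 with an unadjusted p under 0.05), and 1 rose in DEN_WT.

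The start of Ppfia4 is shown because its WT libraries held almost no reads of the gene. Of its 2 RefSeq windows, the upstream one is chr1:134344667-134344966 on the minus strand of GRCm38.p6. Capitals mark an E-box and 3 GC boxes.
Ppfia4: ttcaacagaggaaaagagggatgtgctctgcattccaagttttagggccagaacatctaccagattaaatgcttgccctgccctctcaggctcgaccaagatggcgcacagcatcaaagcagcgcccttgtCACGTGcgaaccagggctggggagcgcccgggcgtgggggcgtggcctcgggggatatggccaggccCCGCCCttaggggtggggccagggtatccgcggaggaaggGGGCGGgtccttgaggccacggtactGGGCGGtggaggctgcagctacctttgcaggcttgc

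Gldn (ENSMUSG00000046167; mm9 chromosome 9, 54134293 to 54189593, plus strand) had 3.10, 11.3, 4.08 and 8.11 CPM in PR-SET7_LOBE, against 25.0 and 52.5 CPM in DEN_WT and 0.191 and 0.0922 CPM in WT. As for Ppfia4, WT held 2 counts and 1 count. DEN_WT stood above every PR-SET7_LOBE library, and the DEN_WT replicates themselves differed 2.10-fold. The means were 6.64 ± 3.78 CPM in PR-SET7_LOBE (SD, n = 4), 38.7 ± 19.4 CPM in DEN_WT and 0.142 ± 0.0702 CPM in WT (SD, n = 2 each). Pooled over libraries, the PR-SET7_LOBE level was 47.0 times that of WT (95% counting interval 15.9 to 229) and the DEN_WT level 275 times that of WT (93.8 to 1340). As for Ppfia4, the intervals leave out the spread between libraries and the choice of the gene. Gldn was lower in PR-SET7_LOBE than in DEN_WT by a log2 fold change of -2.54 (SE 0.52, 95% interval -3.69 to -1.40, edgeR, adjusted p = 0.0100). Without DEN_WT replicate 2, the library with the highest level, it was -1.93 and did not pass (adjusted p = 0.222). The gene shares 15085 bases with 1700104A03Rik on the opposite strand, which held 6 counts in all over the 8 libraries.

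The binding partners of gliomedin went the other way in DEN_WT. Nfasc, which encodes neurofascin and like Nrcam was picked for its values, had 8.26, 4.02, 5.85 and 9.20 CPM in PR-SET7_LOBE, against 1.51 and 1.24 CPM in DEN_WT and 11.2 and 7.56 CPM in WT. It fell in DEN_WT against WT by a log2 fold change of -2.76 (edgeR, adjusted p = 0.0165) and was higher in PR-SET7_LOBE than in DEN_WT by 2.31 (adjusted p = 0.0199). Both calls were lost without either DEN_WT library (adjusted p of 0.125 to 0.271), and the first also without WT replicate 1 (0.0942). Nrcam had 0.845, 2.58, 2.41 and 3.19 CPM in PR-SET7_LOBE, 0.354 and 0.265 CPM in DEN_WT and 3.06 and 2.03 CPM in WT, and fell in DEN_WT against WT by a log2 fold change of -2.99 (edgeR, adjusted p = 0.0482), a call lost in 6 of the 8 fits that left out 1 library (adjusted p up to 0.316, without DEN_WT replicate 2).

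The sodium channel gene Scn8a (ENSMUSG00000023033) followed Gldn instead, with 21.1, 8.42, 24.1 and 11.5 CPM in PR-SET7_LOBE, 28.2 and 51.7 CPM in DEN_WT and 2.49 and 5.35 CPM in WT. It rose in DEN_WT against WT by a log2 fold change of 3.35 (edgeR, adjusted p = 0.0105), which did not pass without DEN_WT replicate 2 (0.0760) or WT replicate 1 (0.0942). Of 21 tested partners of gliomedin and genes of the node of Ranvier, 1 rose and 6 fell in DEN_WT against WT. None passed between PR-SET7_LOBE and WT, where 7 had an unadjusted p under 0.05. Between PR-SET7_LOBE and DEN_WT, 8 were higher and none lower, with a median log2 fold change of 2.01 against 0.18 over all tested genes. Of 10 other tested olfactomedin-domain genes, none passed between PR-SET7_LOBE and WT (4 with an unadjusted p under 0.05), and 2 fell in DEN_WT.

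The start of Gldn is shown as the one with an AP-1 match, and RefSeq lists 1 window for it, chr9:54286236-54286535 on the plus strand of GRCm38.p6. Capitals mark the AP-1 site and a GC box, which reads CCGCCC on this strand.
Gldn: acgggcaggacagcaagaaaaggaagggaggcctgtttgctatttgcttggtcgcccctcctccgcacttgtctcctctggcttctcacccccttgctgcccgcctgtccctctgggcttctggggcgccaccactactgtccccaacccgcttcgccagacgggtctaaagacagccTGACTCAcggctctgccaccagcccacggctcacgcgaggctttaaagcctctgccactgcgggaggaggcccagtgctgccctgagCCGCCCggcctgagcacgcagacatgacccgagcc

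The windows were searched on both strands for an E-box (CACGTG), a cyclic AMP response element (TGACGTCA), an AP-1 site (TGANTCA), the core of an antioxidant response element (TGACNNNGC), the core of the RE1 site of neuronal gene silencing, a GC box (GGGCGG) and a TATA box (TATAAA). Counted from 0 at the first base after the 250 upstream ones, the Gldn window holds the AP-1 site at position -72 and the GC box at 15, and the upstream Ppfia4 window holds the E-box at -119 and GC boxes at -52, -12 and 14. Of all 32851 windows in the table, 7.81% hold an AP-1 site, 7.15% an E-box and 35.7% a GC box. The 3 printed windows hold 62.3% to 65.0% G and C and 16 to 18 CG dinucleotides, where the medians over all windows are 52.7% and 7. The second windows of Lrtm2 and Ppfia4 hold a GC box each and none of the other motifs. They hold 60.3% and 61.7% G and C but only 6 and 7 CG dinucleotides, so a CG-rich start is not a trait of every window. These matches describe the letters only.

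Tubb2b (ENSMUSG00000045136; mm9 chromosome 13, 34218877 to 34222223, minus strand) was by far the most abundant of the 4, with 256, 174, 313 and 277 CPM in PR-SET7_LOBE, against 75.3 and 108 CPM in DEN_WT and 28.8 and 33.3 CPM in WT. The groups followed each other without overlap. Within PR-SET7_LOBE its coefficient of variation was 23.2%, the smallest of the 4 genes. The means were 255 ± 59.1 CPM in PR-SET7_LOBE (SD, n = 4), 91.7 ± 23.3 CPM in DEN_WT and 31.0 ± 3.17 CPM in WT (SD, n = 2 each). It was higher in PR-SET7_LOBE than in DEN_WT by a log2 fold change of 1.48 (SE 0.40, 95% interval 0.59 to 2.36, edgeR, adjusted p = 0.0385). The direction held when any 1 library was left out, but the call was kept in only 2 of those 8 fits, with adjusted p = 0.415 without DEN_WT replicate 1 and 0.252 without DEN_WT replicate 2. The other losses were without WT replicate 1 (0.0702), WT replicate 2 (0.0752) and PR-SET7_LOBE replicates 3 (0.0721) and 4 (0.0564). Relative to WT the log2 fold change was 3.04 in PR-SET7_LOBE and 1.56 in DEN_WT.

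Tubb2a, the near-identical neighbour of Tubb2b, lies 49000 bases away on the same strand. The coding sequences differ at 47 of 1338 bases, an identity of 96.5%. The last 90 coding bases, which end with the stop codon, are shown because the tail of a beta tubulin is where isotypes usually differ most. Capitals mark the 3 bases at which the pair differs there. Read in frame, each of the 3 leaves the encoded amino acid unchanged, so this tail does not tell the proteins of the pair apart.
Tubb2b: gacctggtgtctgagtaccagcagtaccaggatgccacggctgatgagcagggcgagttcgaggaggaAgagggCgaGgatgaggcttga
Tubb2a: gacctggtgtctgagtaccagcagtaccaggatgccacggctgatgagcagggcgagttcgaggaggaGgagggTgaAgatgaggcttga

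Of the stretches of 100 bases in the Tubb2b transcript, 27.7% occur unchanged in transcripts of other genes and 26.1% in Tubb2a. For stretches of 50 bases the shares are 39.3% and 33.4%. None of the stretches of Lrtm2, Ppfia4 or Gldn occur in another gene. How reads with several hits were treated is not given in the sources used here, so the split of counts between Tubb2a and Tubb2b is uncertain. Summing the pair gave a log2 fold change of 1.57 between PR-SET7_LOBE and DEN_WT (SE 0.45, edgeR, adjusted p = 0.0453).

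Tubb2a moved with Tubb2b. It had 358, 329, 647 and 529 CPM in PR-SET7_LOBE, against 125 and 176 CPM in DEN_WT and 49.3 and 62.9 CPM in WT. It rose in PR-SET7_LOBE against WT by a log2 fold change of 3.05 (edgeR, adjusted p = 0.0331), one of 26 genes called higher there. That call was lost without WT replicate 1 (0.209), WT replicate 2 (0.411), PR-SET7_LOBE replicate 2 (0.0623) or either DEN_WT library (0.0577 and 0.0578). It was also higher than in DEN_WT, by 1.63 (adjusted p = 0.0400), a call lost in 6 of the 8 fits that left out 1 library (adjusted p up to 0.394, without DEN_WT replicate 1). The ratio of Tubb2a to Tubb2b counts was 1.40, 1.89, 2.07 and 1.91 in PR-SET7_LOBE, 1.67 and 1.63 in DEN_WT and 1.71 and 1.89 in WT. The PR-SET7_LOBE libraries spanned those of both other groups, and the DEN_WT ratios lay just below the WT ratios.

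Of the 6 beta tubulins tested besides Tubb2b, Tubb2a alone passed between PR-SET7_LOBE and WT, and 4 had an unadjusted p under 0.05. The widely expressed Tubb4b had 162, 198, 259 and 335 CPM in PR-SET7_LOBE, against 152 and 199 CPM in DEN_WT and 82.8 and 91.2 CPM in WT (log2 fold change against WT 1.45, edgeR, adjusted p = 0.158, and 0.0262 without PR-SET7_LOBE replicate 1). Tubb5 had 174, 185, 185 and 158 CPM in PR-SET7_LOBE, against 100 and 101 CPM in DEN_WT and 98.1 and 66.8 CPM in WT (1.09, adjusted p = 0.189, and 0.0406 without PR-SET7_LOBE replicate 1). Tubb3, the isotype used as a neuron marker, stayed between 1.22 and 4.28 CPM in PR-SET7_LOBE, at 0.708 and 0.795 CPM in DEN_WT and at 0.766 and 1.48 CPM in WT (1.37, adjusted p = 0.325). Per kilobase of exon, all beta tubulins together came to 485, 448, 739 and 672 CPM in PR-SET7_LOBE, 231 and 307 CPM in DEN_WT and 122 and 121 CPM in WT. Tubb2b made up 23.0%, 16.9%, 18.5% and 18.0% of these sums in PR-SET7_LOBE, 14.2% and 15.4% in DEN_WT and 10.3% and 11.9% in WT. The shares did not overlap between the groups, which the choice of Tubb2b favours. The shares of Tubb2a had the same order, with 45.8%, 45.7%, 54.4% and 48.8% in PR-SET7_LOBE, 33.8% and 35.7% in DEN_WT and 25.1% and 32.2% in WT. How reads were split between the pair bears on both.

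**Figure D2:**
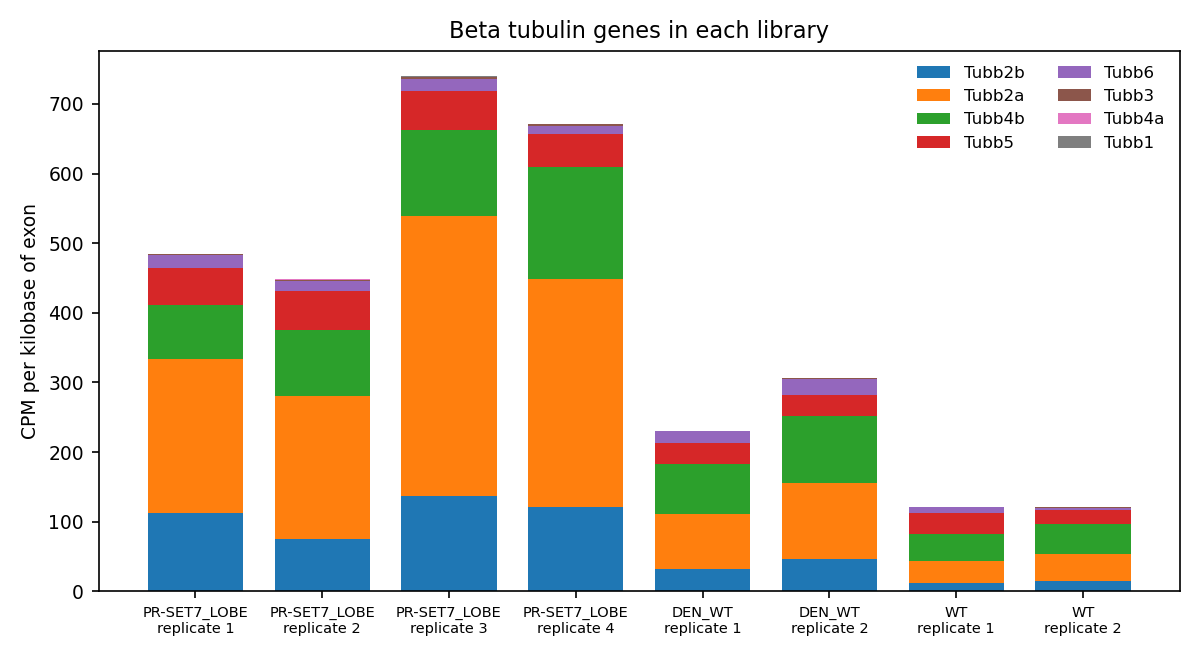
Levels of the 8 beta tubulin genes in each library in CPM per kilobase of exon, stacked, with bars from 0. The total is 448 to 739 in PR-SET7_LOBE, 231 and 307 in DEN_WT and 122 and 121 in WT, and Tubb2a and Tubb2b fill most of it in the PR-SET7_LOBE libraries.

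Of 12 tested alpha, gamma, delta and epsilon tubulins, none passed between PR-SET7_LOBE and WT (4 with an unadjusted p under 0.05), 1 fell in DEN_WT against WT, and 2 were higher in PR-SET7_LOBE than in DEN_WT. Alpha tubulins, with which beta tubulins pair, did not all follow 1 pattern. Tuba1a had 250, 279, 360 and 295 CPM in PR-SET7_LOBE, against 28.8 and 38.1 CPM in DEN_WT and 120 and 120 CPM in WT. It was higher in PR-SET7_LOBE than in DEN_WT by a log2 fold change of 3.15 (edgeR, adjusted p = 0.00132, and up to 0.0350 with 1 library left out). Against WT, PR-SET7_LOBE did not pass (1.30, adjusted p = 0.158, and 0.0270 without PR-SET7_LOBE replicate 1), and DEN_WT fell (-1.84, adjusted p = 0.0214), a call lost without any 1 of the WT or DEN_WT libraries (0.102 to 0.239). Tuba1b had 618, 481, 879 and 378 CPM in PR-SET7_LOBE, against 87.9 and 120 CPM in DEN_WT and 342 and 192 CPM in WT. It was higher in PR-SET7_LOBE than in DEN_WT by 2.5 (edgeR, adjusted p = 0.0108), lost without DEN_WT replicate 1 (0.172) or 2 (0.128), and it was picked for its values. Tuba1c and Tuba8 had the order of groups of Tubb2b in their means, though neither passed in any contrast on all 8 libraries. Tuba1c had 357, 395, 689 and 409 CPM in PR-SET7_LOBE, against 190 and 263 CPM in DEN_WT and 210 and 155 CPM in WT (log2 fold change of PR-SET7_LOBE against WT 1.34, edgeR, adjusted p = 0.194, and 0.0427 without PR-SET7_LOBE replicate 1). Tuba8 had 9.77, 6.89, 28.1 and 9.20 CPM in PR-SET7_LOBE, against 3.90 and 7.33 CPM in DEN_WT and 3.45 and 0.922 CPM in WT (2.62, adjusted p = 0.159, and 0.0493 without PR-SET7_LOBE replicate 1). In DEN_WT, the Tubb2b and Tubb2a libraries lay above WT, those of Tuba1a and Tuba1b below, and those of Tuba1c overlapped WT.

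Of 31 tested regulators of microtubules and kinesins, none passed between PR-SET7_LOBE and WT (7 with an unadjusted p under 0.05), and 1 rose and 2 fell in DEN_WT. Stmn1, which binds free tubulin dimers, had 17.2, 12.3, 19.1 and 12.3 CPM in PR-SET7_LOBE, against 11.6 and 8.30 CPM in DEN_WT and 3.64 and 3.69 CPM in WT (log2 fold change of PR-SET7_LOBE against WT 2.05, edgeR, adjusted p = 0.0836, and 0.0213 without PR-SET7_LOBE replicate 1). Dcx, a microtubule-binding protein of migrating neurons that was picked for its values, had 30.8, 16.5, 12.9 and 27.4 CPM in PR-SET7_LOBE, against 1.15 and 1.06 CPM in DEN_WT and 44.1 and 39.5 CPM in WT. It fell in DEN_WT against WT by a log2 fold change of -5.23 (edgeR, adjusted p = 0.00166, and up to 0.0289 with 1 library left out). The neuronal kinesin Kif5c, picked for its values too, went the other way, with 0, 0.287, 2.41 and 2.73 CPM in PR-SET7_LOBE, against 19.8 and 24.5 CPM in DEN_WT and 0 and 0.553 CPM in WT. It rose in DEN_WT against WT by a log2 fold change of 6.25 (edgeR, adjusted p = 0.0326), a call lost without WT replicate 1 (0.165) or 2 (0.0700) or DEN_WT replicate 1 (0.0775) or 2 (0.112). None of 21 genes of tubulin folding and modification passed in any contrast, with 2 at an unadjusted p under 0.05 between PR-SET7_LOBE and WT, 1 between DEN_WT and WT and 2 between PR-SET7_LOBE and DEN_WT. None of 18 intermediate filament genes or 34 genes of the actin cytoskeleton passed between PR-SET7_LOBE and WT, with 3 and 8 at an unadjusted p under 0.05.

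**Figure D3:**
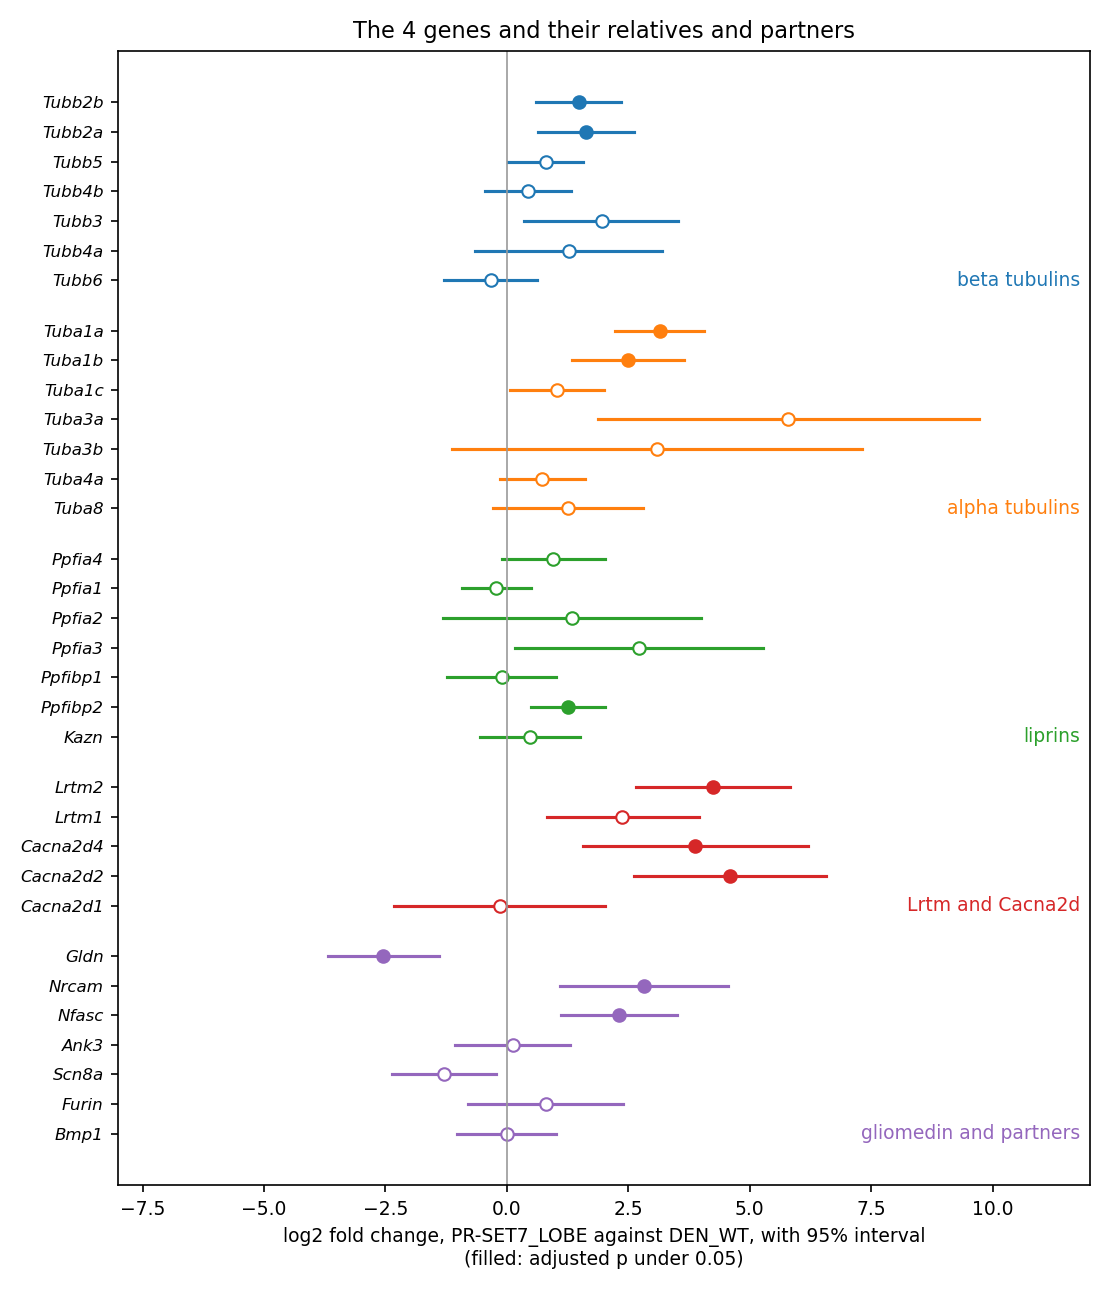
Fitted log2 fold changes of PR-SET7_LOBE against DEN_WT for the 4 genes and for relatives and partners, with 95% intervals; filled points have an adjusted p under 0.05 in edgeR. Gldn lies at -2.54 while its partners Nrcam and Nfasc lie at 2.82 and 2.31, and Tuba1a (3.15) lies farther from 0 than Tubb2b (1.48).

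The neuronal association of the 4 genes was set against markers of neurons and of other cell types. None of 8 tested neuron markers passed between PR-SET7_LOBE and WT or had an unadjusted p under 0.05, and their median log2 fold change was 0.01. The summed level of the 12 neuron markers was 22.0 to 46.2 CPM in PR-SET7_LOBE, 16.9 and 18.1 CPM in DEN_WT and 38.7 and 41.4 CPM in WT, so PR-SET7_LOBE overlapped WT and DEN_WT lay below both. Elavl3 and Rbfox3 together carried most of the WT sums and little of the DEN_WT sums, so the lower place of DEN_WT rests on them. Rbfox3 had 5.46 and 12.0 CPM in WT and 0.797 and 0.707 CPM in DEN_WT. In WT, Nefl, Uchl1, Gap43 and Stmn2 were at 0, and Nefl was at 0 in DEN_WT. None of the 12 was at 0 in all PR-SET7_LOBE libraries. Elavl3, an RNA-binding protein of neurons that was picked for its values, had 16.9, 8.51, 7.52 and 21.1 CPM in PR-SET7_LOBE, against 0.354 and 0.618 CPM in DEN_WT and 21.4 and 18.3 CPM in WT. It fell in DEN_WT against WT by a log2 fold change of -5.32 (edgeR, adjusted p = 0.00215, and up to 0.0289 with 1 library left out). The neuronal splicing factor Rbfox3 fell there too (-3.52, adjusted p = 0.0120), a call lost without WT replicate 2 (0.0771) or either DEN_WT library (0.102 and 0.136). The neuroendocrine factor Insm1 was at 2.78 to 11.7 CPM in PR-SET7_LOBE, at 0.0885 and 0.177 CPM in DEN_WT and at 11.6 and 11.4 CPM in WT, and fell in DEN_WT (-6.32, edgeR, adjusted p = 0.00249). Other neuron markers had low levels that pointed up without passing. Elavl4 had 0.188, 0, 1.21 and 2.19 CPM in PR-SET7_LOBE, 0.177 and 0.265 CPM in DEN_WT and 0 and 0.0922 CPM in WT (log2 fold change of PR-SET7_LOBE against WT 3.96, edgeR, adjusted p = 0.312). Nefm had 0.188, 0, 0.650 and 1.64 CPM in PR-SET7_LOBE, 0 and 0.177 CPM in DEN_WT and 0.191 and 0 CPM in WT (2.58, adjusted p = 0.476). No neuron marker was called higher than WT in either group. Only 0.15% of all tested genes were in PR-SET7_LOBE and 5.18% in DEN_WT, so a list of 8 could hardly show a call and its absence decides nothing. A neuronal source of the 4 genes was not tested, and they are called here by name and not by a cell type.

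None of 8 tested Schwann cell markers passed between PR-SET7_LOBE and WT, where 3 had an unadjusted p under 0.05. The summed level of the whole list was 68.2 to 152 CPM in PR-SET7_LOBE, 120 and 108 CPM in DEN_WT and 214 and 217 CPM in WT. Erbb3 carried most of these sums in WT (151 and 176 CPM) and in DEN_WT (108 and 97.2 CPM). In PR-SET7_LOBE it had 102, 36.4, 59.4 and 43.2 CPM, so the order of the sums largely follows that gene. Sox10, the factor that defines Schwann cells, had 0.470, 0.287, 3.34 and 14.2 CPM in PR-SET7_LOBE, 0.266 and 0.353 CPM in DEN_WT and 0 in both WT libraries. It did not pass between PR-SET7_LOBE and WT on all 8 libraries (log2 fold change 8.64, edgeR, adjusted p = 0.163). Without PR-SET7_LOBE replicate 1, where 2392 genes were called, its adjusted p was 0.0436. Markers of bile duct and progenitor cells lay higher in both groups, at 127 to 299 CPM in PR-SET7_LOBE and 449 and 758 CPM in DEN_WT, against 68.8 and 40.0 CPM in WT, the same order of groups as for Gldn. Spp1 carried most of these sums in DEN_WT (383 and 679 CPM). Without it, a sum added after the data were seen, the other 9 came to 124, 46.1, 73.2 and 57.8 CPM in PR-SET7_LOBE, 66.2 and 79.3 CPM in DEN_WT and 53.3 and 31 CPM in WT, so PR-SET7_LOBE overlapped both other groups. Sox9, a factor of duct and progenitor cells, had 48.7, 17.8, 30.9 and 21 CPM in PR-SET7_LOBE, against 11.2 and 12.1 CPM in DEN_WT and 7.56 and 3.50 CPM in WT (log2 fold change of PR-SET7_LOBE against WT 2.42, edgeR, adjusted p = 0.0954, and 0.0241 without PR-SET7_LOBE replicate 1). Of the 9 tested, Spp1, a matrix protein of cholangiocytes, rose in PR-SET7_LOBE against WT (176, 249, 191 and 68.8 CPM against 15.5 and 9.04 CPM, log2 fold change 3.80, edgeR, adjusted p = 0.0411). Without WT replicate 1 or 2 or PR-SET7_LOBE replicate 2 or 3 that call was lost (0.183, 0.447, 0.0831 and 0.0623). Proliferation markers summed to 29.3 to 56.2 CPM in PR-SET7_LOBE, 28.7 and 32.6 CPM in DEN_WT and 9.87 and 11.8 CPM in WT; none of the 7 passed between PR-SET7_LOBE and WT (5 with an unadjusted p under 0.05) and 3 rose in DEN_WT. Skeletal muscle markers ran from 12.7 to 45.1 CPM in PR-SET7_LOBE, at 4.25 and 3.53 CPM in DEN_WT and at 13.1 and 17.1 CPM in WT. Acta1 carried most of the WT sums (11.8 and 13.8 CPM) and that of PR-SET7_LOBE replicate 1 (25.5 CPM), and Ttn most of those of replicates 3 and 4 (23.7 and 32.0 CPM). Leukocyte markers ran from 112 to 309 CPM in PR-SET7_LOBE, against 124 and 77.5 CPM in DEN_WT and 94.4 and 77.4 CPM in WT. Lyz2 carried most of the PR-SET7_LOBE sums (251, 231, 199 and 71.7 CPM), and it had 86.7 and 51.2 CPM in DEN_WT and 50.7 and 35.4 CPM in WT. Stellate cell markers ran from 119 to 224 CPM in PR-SET7_LOBE, against 152 and 258 CPM in DEN_WT and 80.4 and 107 CPM in WT. The part of these cell types in the levels of the 4 genes was not tested.

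**Figure D4:**
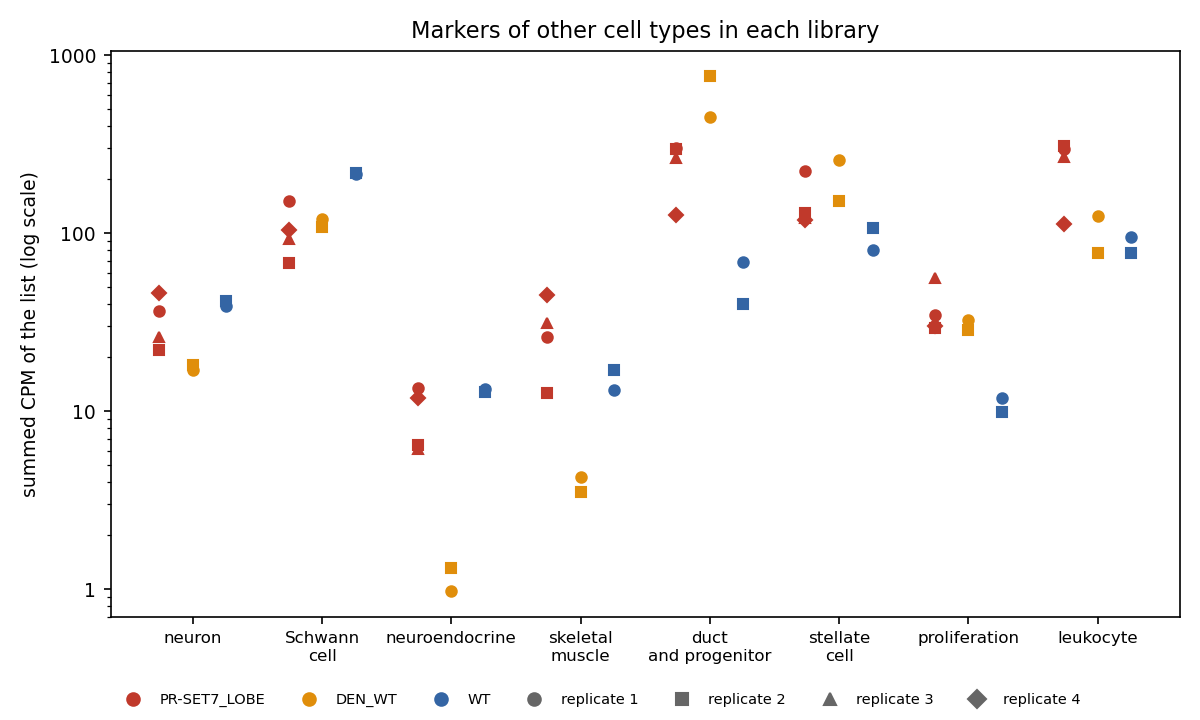
Summed CPM of 8 marker lists in each library on a log scale, with colours for groups and symbols for replicates. Neuron markers in PR-SET7_LOBE (22.0 to 46.2 CPM) span those in WT, while duct and progenitor markers lie highest in DEN_WT (449 and 758 CPM), where Spp1 makes up most of the sum.

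Per kilobase of exon, the mean levels in PR-SET7_LOBE were 111 CPM for Tubb2b, 9.65 for Lrtm2, 1.43 for Gldn and 1.33 for Ppfia4, the last 2 with overlapping libraries. In DEN_WT the order was Tubb2b (40.0), Gldn (8.31), Ppfia4 (0.680) and Lrtm2 (0.507), and in WT it was Tubb2b (13.5), Lrtm2 (0.437), Gldn (0.0304) and Ppfia4 (0.0216). Over the 8 libraries, log2 CPM of Tubb2b and Ppfia4 correlated at r = 0.905, of Tubb2b and Lrtm2 at 0.814, of Ppfia4 and Gldn at 0.800 and of Lrtm2 and Gldn at 0.206. These values describe 8 libraries in 3 groups, and the choice of the genes itself favours shared differences between the groups.

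**Figure D5:**
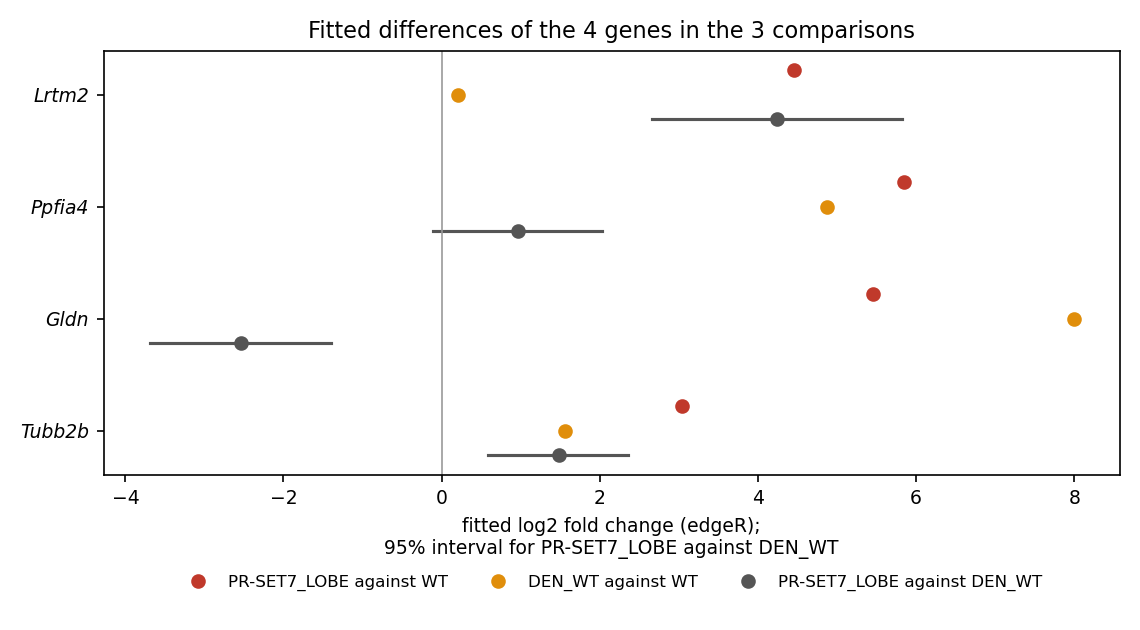
Fitted log2 fold changes of the 4 genes in the 3 comparisons; a 95% interval is drawn for PR-SET7_LOBE against DEN_WT only, as the other 2 contrasts chose the genes. Lrtm2 lies at 4.46, 0.21 and 4.24, and Gldn is the one gene below 0 against DEN_WT (-2.54); for Ppfia4 and Gldn the points against WT rest on 3 counts in WT.

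Among 11181 genes with a mean log2 CPM of at least 1, the 3 whose levels followed each member most closely over the 8 libraries were named, as a description with no test. For Tubb2b these were Tubb2a (r = 0.992), Iqgap3 (0.981) and the growth factor gene Tgfb2 (0.954). Ppfia4 was followed by the related Kazn (0.978), the integrin gene Itgax of dendritic cells and macrophages (0.973) and Phlda2 (0.957). For Gldn these were Med6, of the Mediator complex (0.975), Psrc1 (0.966) and Itpripl2 (0.963), and for Lrtm2 the septin gene Sept4 (0.977), Unc13d, a factor of granule exocytosis (0.973), and Nolc1 (0.972). The Gldn-like Psrc1 had 7.04, 12.4, 2.78 and 4.46 CPM in PR-SET7_LOBE, against 13.8 and 29.0 CPM in DEN_WT and 0.383 and 0.0922 CPM in WT. The gene nearest to Lrtm2, Sept4, had a far smaller range, with 17.2, 15.3, 13.9 and 15 CPM in PR-SET7_LOBE, against 12.0 and 12.0 CPM in DEN_WT and 11.8 and 11.4 CPM in WT. Between 0.358% and 0.635% of the compared genes reached r = 0.9 with a given member.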

How the data were processed

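The deposited values are whole-number read counts per Ensembl gene for 8 mouse liver libraries, in a table of the series whose counts equal those in the files of the single samples. The submitters' processing notes name the build mm9 and, with no roles, TopHat2 2.0.9, DESeq and Cufflinks. Per the labels' protocols, mRNA was isolated on beads, cut with RNaseIII, ligated to adaptors, amplified and sequenced on Ion Proton chips. Not given in the sources used here: how reads were counted, whether by strand, and what was done with multiply mapped ones. Since no label ties replicates to separate animals, p-values speak of the spread among these samples only, and that spread may be technical. Intervals and floors from counts cover counting error alone, because PCR copies are not separate molecules.

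From the counts, edgeR 4.0.16 (R 4.3.3) was run with TMM scaling, filterByExpr by group and the robust quasi-likelihood test on all 8 libraries with the group as the only term. Benjamini-Hochberg adjustment covered all 17362 tested genes, and a gene is called at an adjusted p under 0.05. The common biological coefficient of variation was 0.479. CPM uses the TMM-scaled library; log2 CPM has a prior count of 2. The members and the gene lists were chosen with earlier results of these data known, and the lists are described by counts and medians. Named genes are the members, up to 3 genes per list with the smallest p between PR-SET7_LOBE and WT, the tested genes of the members' families, the 3 nearest patterns per member, overlapping genes and Setd8; the list genes Tuba1b, Nrcam, Nfasc, Dcx, Kif5c and Elavl3 fall outside that rule and were picked for their values. Exon lengths and transcripts came from GENCODE M21, which is of another build, with lengths for 87.4% of genes; start windows came from RefSeq (GRCm38.p6). RefSeq windows were found for 3 of the 4 members, none for Tubb2b. Alternatives were other scalings, DESeq2 1.42.0, limma 3.58.1 (voom with quality weights), other filters, fits on 2 groups, a block for the replicate number, 1 library removed at a time, the 20 most abundant genes removed, and a sum of Tubb2a and Tubb2b. The model fits were tested on simulated counts.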

Additional observations from a re-analysis of the deposited data

Results flagged for a closer look

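Phlda2, one of the genes that followed Ppfia4 most closely, had 6.01, 5.64, 17.5 and 4.46 CPM in PR-SET7_LOBE, against 4.96 and 3.00 CPM in DEN_WT and 0.191 and 0.0922 CPM in WT. PR-SET7_LOBE replicate 3 lay far from the other 3: its gap to the nearest of them was 0.881 of the group's range, above Dixon's 95% critical value for 4 samples. The same library was the highest for Tuba8 (28.1 CPM, against 6.89 to 9.77 CPM in the other 3; 0.864 of the range) and for Tuba1c (689 CPM, against 357 to 409 CPM; 0.844 of the range). Chance alone gives such a value in about 1 of 20 groups, and 48 genes were checked, which leaves out many genes of the lists. Replicate 3 is not the only library that can lie far out. In Pdgfrb and Olfm2, replicate 1 had 56.6 and 35.8 CPM, against 20.8 to 22.5 CPM and 9.76 to 12.1 CPM in the other PR-SET7_LOBE libraries. None of the 4 members had such a library.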

How the results depend on the processing

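Lrtm2 stayed higher and Gldn lower in PR-SET7_LOBE than in DEN_WT in every alternative run, and Lrtm2 kept its call in all of them (log2 fold change 3.94 to 4.46 with 1 library left out and 3.55 to 4.84 in the other settings). Gldn ranged from -3.01 to -1.93 with 1 library left out and lost its call without DEN_WT replicate 2 alone. Ppfia4 passed with limma voom with quality weights (1.03, adjusted p = 0.0168) and in no other setting. Tubb2b kept its direction, from 1.20 to 1.73 with 1 library left out, but not its call with no count filter (1.39), with only the 2 groups compared (1.42) and with the replicate block (1.24, adjusted p = 0.0813). The genes called between PR-SET7_LOBE and WT (43) became 66 with upper-quartile scaling (47 higher and 19 lower, against 26 and 17), 927 with DESeq2, 386 with voom, 419 with no count filter, 19 with only the 2 groups, 243 with the replicate block and 1 to 2392 with 1 library left out. Those of the lists (2) became 37 with DESeq2, 10 with voom, 13 with no filter, 0 with the 2 groups, 11 with the block and 0 to 51 with 1 library left out. Between DEN_WT and WT, 1688 genes became 3144 with DESeq2, 6335 with voom, 5643 with the 2 groups, 3137 with the block and 329 to 4549 with 1 library left out, and 36 list genes became 86 with voom, 74 with the 2 groups and 6 to 62. Between PR-SET7_LOBE and DEN_WT, 1923 genes became 5188 with voom and 454 to 2662 with 1 library left out, and 27 list genes became 47 with DESeq2, 87 with voom and 6 to 41. All of these runs use libraries behind the choice of the members. Replicate numbers 3 and 4 occur only in PR-SET7_LOBE, so the block fits compare PR-SET7_LOBE replicates 1 and 2 alone with the other groups. The cause of the other changes was not tested.

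Differences near 0 between PR-SET7_LOBE and WT changed sign. Nrcam went to 0.06 with upper-quartile scaling and 0.04 with voom, against -0.17, and spanned -0.37 to 0.14 with 1 library left out; Cacna2d2 spanned -0.01 to 1.12 and Cyp19a1 -0.12 to 0.95. Setd8 (-0.01) went to 0.16 with upper-quartile scaling and with the block, 0.15 with a strict filter, 0.04 without the 20 most abundant genes and -0.09 to 0.12 with 1 library left out. Larger differences shifted with the replicate block, where Kif5c went to -0.86, against 2.24, and Nefm to 0.00, against 2.58. That block takes PR-SET7_LOBE replicates 3 and 4 out of the contrasts. Kif5c had 2.41 and 2.73 CPM in those 2 libraries, against 0 and 0.287 CPM in replicates 1 and 2. Deviations of same-numbered libraries from their group means correlated at -0.00874 to 0.165. With 2 libraries each in WT and DEN_WT, these values cannot tell whether the replicate numbers pair the samples. The median log2 fold change of all tested genes was 0.11 between PR-SET7_LOBE and WT and 0.18 between PR-SET7_LOBE and DEN_WT, and 0.29 and 0.28 with upper-quartile scaling. At 3 counts in all, the WT level of Ppfia4 and Gldn is set by depth.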

Other observations

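The genes on either side of each member on the mm9 map were looked at after the values of the members were known. Of the 8 neighbours, 7 passed the count filter, and Tubb2a was the only one that moved like its member. Adipor2, an adiponectin receptor gene that lies 22384 bases from Lrtm2, had 343, 173, 284 and 339 CPM in PR-SET7_LOBE, against 348 and 416 CPM in DEN_WT and 742 and 997 CPM in WT. Its log2 fold change of PR-SET7_LOBE against WT was -1.61 (SE 0.40, edgeR, adjusted p = 0.123), and it passed without PR-SET7_LOBE replicate 1 (-1.71, adjusted p = 0.0276). Cyp19a1, the aromatase gene 18376 bases from Gldn, had 1.22, 2.58, 1.11 and 3.64 CPM in PR-SET7_LOBE, against 0.0885 and 0.177 CPM in DEN_WT and 1.15 and 2.30 CPM in WT. It was higher in PR-SET7_LOBE than in DEN_WT by a log2 fold change of 3.90 (SE 0.96, edgeR, adjusted p = 0.0237), opposite in direction to Gldn, and did not pass without DEN_WT replicate 1 (0.246) or 2 (0.201). Dmxl2, on the other side of Gldn, had 2.44, 19.0, 33.8 and 21.4 CPM in PR-SET7_LOBE, against 18.2 and 15.4 CPM in DEN_WT and 6.03 and 4.52 CPM in WT, so that PR-SET7_LOBE replicate 1 lay below WT.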
